A study of Mus musculus with 28 samples.

Results

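Mouse macrophages that had been exposed to interferon-gamma (IFN-γ) before LPS were compared with macrophages that had received LPS alone, on 10 of the 28 arrays of the series. The 10 arrays were chosen by their sample titles alone, 3 from cells given IFN-γ and LPS and 7 from cells given LPS. All cells were bone marrow-derived macrophages of C57BL6/J mice of 8 to 12 weeks, grown in the macrophage growth factor CSF1 (200 ng/ml). The labels name pooled marrow of 2 males and 1 female. IFN-γ (100 U/ml) was given from day 7 for 18 h, and LPS (10 ng/ml), the endotoxin of Gram-negative bacteria and a ligand of TLR4, for the last 4 h before harvest. CSF1 and the pooling were common to both groups, and the labels name no genetic alteration. For reference, 3 arrays of cells given IFN-γ without LPS and 7 of untreated cells were used. The 8 arrays of cells given IL-4 entered only the statistical model, the filter for tested genes and the choice of each gene's probe. RNA was labelled with Cy3 and read on single-colour oligonucleotide arrays. The series addresses TLR4 responses of cytokine-primed macrophages, and the comparison asks how an earlier IFN-γ exposure alters gene expression in LPS-treated cells.

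IFN-γ is made mainly by T cells and NK cells, and its receptor signals through the kinases JAK1 and JAK2. Transcription factors activated by these kinases bind a short palindrome called GAS, and induced factors of the IRF family bind a second motif called ISRE. Macrophages exposed to IFN-γ are known for raised antigen presentation, nitric oxide synthesis and interferon-inducible GTPases, and such exposure is often called priming because it alters the later response to LPS.

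All values below are log2 signals relative to the array's 75th percentile of probe signal, so a step of 1 is a factor of 2. That percentile lay between 579 and 1285 intensity units on the 10 arrays. The scanner software called 60.0% to 72.1% of an array's gene probes well above background. Replicates are named by letters that the labels give to independent experiments, E, F and G for IFN-γ plus LPS and A to G for LPS. Across genes, which are not independent replicates, the correlation was 0.975 to 0.990 between arrays of the first group, 0.960 to 0.990 between arrays of the second and 0.948 to 0.979 between the groups. LPS arrays C and D, of the first scan day, stood apart: the lowest log2 intensity called well above background was 4.96 and 4.90 there, against 3.14 to 3.62 on the other 8. The share of probes well above background was lowest on IFN-γ plus LPS array G (60.1%) and LPS array B (60.0%), against 63.9% to 72.1% on the other 8. IFN-γ plus LPS array G also had the lowest 75th percentile (579). The part of this in the results was not tested. IFN-γ plus LPS arrays E and F shared a slide with LPS arrays A and G, and array G shared a scan day with LPS array B. These 3 pairs (E with A, F with G, G with B) are called matched sets. No IFN-γ plus LPS array shared a slide with the LPS array of its own letter. LPS arrays E and F were also scanned before any IFN-γ plus LPS array. LPS arrays C, D, E and F thus shared neither slide nor scan day with an IFN-γ plus LPS array.

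Macrophage identity was checked first. Each of 11 macrophage marker genes was above background on at least 1 of the 10 arrays, and their summed log2 signal was 10.80 to 10.93 after IFN-γ plus LPS and 10.51 to 10.85 after LPS. The receptor genes Csf1r (-0.09 ± 0.26, adjusted p = 0.839) and Adgre1 (0.12 ± 0.22, adjusted p = 0.733), the latter encoding F4/80, did not pass the test, and a second Adgre1 probe went the other way (unadjusted p under 0.05). Among markers of other cells, the NK cell genes Ncr1 and Gzma and the dendritic cell gene Cd209a were above background on none of the 10 arrays. The summed signal of 11 T and NK cell markers was -0.96 to -0.32 after IFN-γ plus LPS and 0.71 to 2.39 after LPS. For 8 mast cell, red cell and megakaryocyte markers it was 3.68 to 4.50 and 5.61 to 6.74. For 7 B cell markers the ranges were 5.85 to 6.52 and 5.94 to 6.66, for 9 neutrophil markers 4.08 to 5.55 and 4.07 to 5.62, for 9 dendritic cell markers 8.34 to 8.45 and 7.86 to 8.41, and for 9 fibroblast markers 5.30 to 5.91 and 5.70 to 6.49. The part of other cells in the results was not tested. In bulk RNA, fewer cells of a type and less RNA per cell cannot be told apart.

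Promoter sequence is shown here for risen members of the interferon lists that hold a GAS or ISRE motif. In the interferon GTPase, JAK-STAT and IRF, antigen presentation and CXCR3 ligand lists 22 members rose at least 2-fold, and 14 of them matched the RefSeq promoter table (build GRCm38.p6, 250 bases before to 50 after the gene's start). Of these 14 promoters 4 held a match and 10 held none, among them those of Cxcl9, H2-Eb1 and H2-Aa. The 4 are printed on the gene's strand from 5′ to 3′, with the match in capitals.
Gbp2b, chr3:142594597-142594896, plus strand: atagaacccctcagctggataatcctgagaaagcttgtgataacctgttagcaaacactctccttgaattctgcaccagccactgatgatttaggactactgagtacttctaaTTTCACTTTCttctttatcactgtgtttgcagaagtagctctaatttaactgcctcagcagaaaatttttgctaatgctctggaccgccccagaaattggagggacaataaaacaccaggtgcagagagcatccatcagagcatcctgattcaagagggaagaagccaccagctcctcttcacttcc
H2-DMb2, chr17:34144999-34145298, plus strand: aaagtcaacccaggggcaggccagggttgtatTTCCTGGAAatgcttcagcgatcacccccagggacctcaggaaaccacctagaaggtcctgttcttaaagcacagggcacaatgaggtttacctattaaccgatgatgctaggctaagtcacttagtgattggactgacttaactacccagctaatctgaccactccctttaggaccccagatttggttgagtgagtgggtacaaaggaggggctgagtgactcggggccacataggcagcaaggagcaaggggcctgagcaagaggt
Irf8, chr8:120736108-120736407, plus strand: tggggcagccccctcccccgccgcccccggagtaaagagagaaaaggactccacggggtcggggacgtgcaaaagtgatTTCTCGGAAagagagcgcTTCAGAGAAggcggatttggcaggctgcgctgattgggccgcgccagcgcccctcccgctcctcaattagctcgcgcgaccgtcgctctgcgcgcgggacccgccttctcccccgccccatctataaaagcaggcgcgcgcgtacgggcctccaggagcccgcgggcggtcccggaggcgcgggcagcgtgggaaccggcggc
Irf1, chr11:53769764-53770063, plus strand: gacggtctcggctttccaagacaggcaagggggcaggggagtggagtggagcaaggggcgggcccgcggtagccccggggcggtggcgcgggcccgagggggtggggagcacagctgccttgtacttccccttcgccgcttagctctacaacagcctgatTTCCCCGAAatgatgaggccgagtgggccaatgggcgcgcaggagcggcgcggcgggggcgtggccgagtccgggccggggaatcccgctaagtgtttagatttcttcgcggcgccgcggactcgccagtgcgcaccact
The motifs searched on both strands were GAS, TTCNNNGAA, and ISRE, taken as GAAA repeated after any 2 bases, which reads as TTTC repeated in the same way on the other strand. The motifs can overlap where GAAA begins inside a GAS match. Gbp2b holds 1 ISRE match, H2-DMb2 and Irf1 hold 1 GAS match each, and Irf8 holds 2 GAS matches. A match is a run of letters and not a measured binding site. Among 27025 promoters of this length in the table, 8.47% hold GAS and 3.49% hold ISRE, and among the 13556 of 22444 tested genes that matched the table the shares were 7.46% and 3.17%. Promoters of 930 genes that rose at least 2-fold after IFN-γ plus LPS held GAS in 6.77% and ISRE in 2.15%. Those of 1088 genes that fell at least 2-fold held them in 7.63% and 3.68%. Promoters of genes that rose at least 2-fold thus had no larger share of either motif than those of tested genes. In the GTPase list 9 of 10 promoters held ISRE and 5 of 10 held GAS, and in the type I interferon and antiviral list 11 and 9 of 26. In the MHC class II list 1 of 10 held ISRE and 1 of 10 held GAS, and in the glycolysis and hypoxia list 1 and 0 of 28. These shares are descriptions without a test.

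IFN-γ before LPS changed the RNA level of many genes in both directions. At adjusted p under 0.05 in limma, 2415 of 22444 tested genes rose (10.8%) and 2683 fell (12.0%). The change was at least 2-fold for 1377 of the rises and 1589 of the falls, and at least 4-fold for 361 and 364. In 1927 genes (8.59%) all 3 IFN-γ plus LPS arrays lay above all 7 LPS arrays, and in 2160 (9.62%) they lay below. The median change of all tested genes was -0.23, so the balance of rises and falls depends on how arrays are scaled. When arrays were centred on their median signal instead, the median change was 0.03, and 2475 genes rose and 961 fell, which is 72.0% rises in place of 47.4%. Of the main rises 2082 and of the main falls 943 were kept under that scaling, and no called rise turned into a called fall.

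Batch was examined through the matched sets. Of the called genes that changed at least 2-fold, 1363 of 1377 rises and 1546 of 1589 falls went the same way in all 3 sets. With only the matched sets and the set as a block, 2039 of the 2415 rises and 2118 of the 2683 falls were called again. The sets reuse arrays from which these genes were called, so this agreement follows largely from the selection and is not an independent check. With all arrays, slide as a block gave 3603 rises and 3977 falls, and scan day as a block gave 3360 and 3484. Without the first scan day, 1954 genes rose and 1934 fell, and 1850 of the main rises and 1865 of the main falls were kept. That setting left out LPS arrays C and D. It also left out arrays A and B of untreated cells and of cells given IL-4 with or without LPS. The shared estimate of spread thus changed too, and the part of arrays C and D alone was not tested. Leaving out IFN-γ plus LPS array E lowered the counts to 1670 and 1553, and leaving out array F lowered them to 1589 and 1874. With arrays of experiments E, F and G alone in both groups, 1217 rose and 1220 fell.

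**Figure D1:**
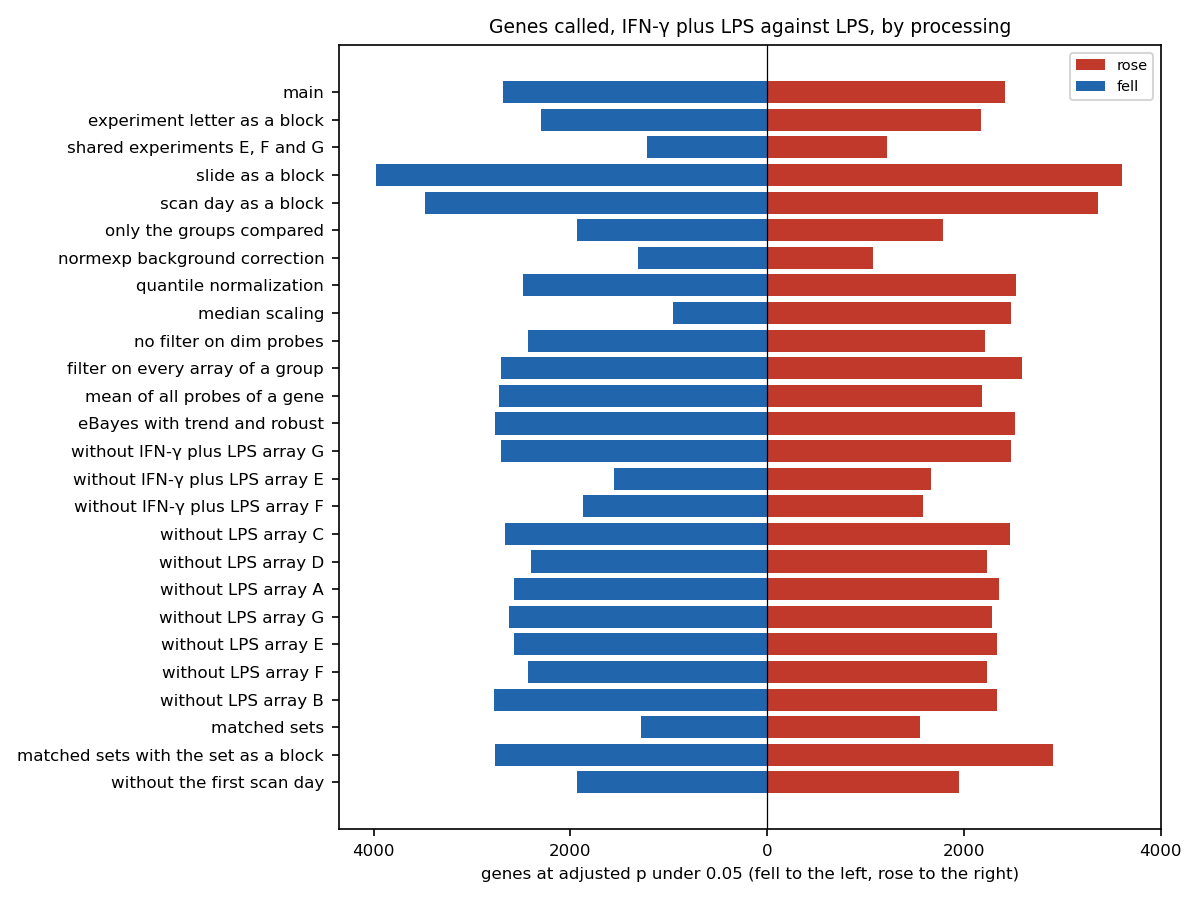
Number of genes called at adjusted p under 0.05 in IFN-γ plus LPS against LPS (x axis, rises to the right in red and falls to the left in blue) under the main processing and 25 alternatives (y axis). The number of falls drops to 961 with median scaling while rises stay at 2475, and both drop with normexp background correction (1078 and 1309) and with experiments E, F and G alone (1217 and 1220).

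For each gene below, the 3 values are the log2 signals of IFN-γ plus LPS arrays E, F and G in that order, set against the range and median of the 7 LPS arrays. A change is the mean after IFN-γ plus LPS minus the mean after LPS on the log2 scale, with its standard error and the adjusted p of limma. Counts of rises and falls in a gene list stand against 10.8% and 12.0% over all genes, and the range in parentheses after a count is its lowest and highest value over the 25 alternatives. The largest fitted rise was in Ubd, which encodes the ubiquitin-like protein FAT10. Its log2 signal was 3.54, 3.81 and 2.20 in IFN-γ plus LPS arrays E, F and G, and ranged from -8.76 to -4.77 (median -7.51) in the LPS arrays, where only 1 of 7 was above background. The fitted change was 10.47 ± 0.74, adjusted p = 5.23e-10, and 6.06 with normexp background correction, so its size rests on signals below background and is not a measured size. Gbp2b, a guanylate-binding protein gene, read 3.81, 3.50 and 2.76 against -3.50 to -2.40 (median -3.26), a change of 6.48 ± 0.64, adjusted p = 9.26e-08. For Dnase1l3, which encodes a secreted nuclease, the 3 arrays gave 2.59, 3.88 and 2.17 and the LPS arrays -3.86 to -1.91 (median -2.95), and it rose by 5.74 ± 0.47, adjusted p = 4.98e-09. Neither gene's groups overlapped. Il12rb1, the receptor subunit shared by IL-12 and IL-23, was at 4.97, 5.38 and 4.74 against -0.73 to 0.86 (median 0.08) and rose by 4.86 ± 0.30, adjusted p = 7.60e-11.

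Other large rises came from genes of varied function. They included the BCL-2 family gene Bcl2l14 (4.80 ± 0.44, adjusted p = 2.67e-08), the amino acid transporter gene Slc6a19 (4.67 ± 0.54, adjusted p = 9.33e-07), the cell fusion gene Ocstamp (4.60 ± 0.43, adjusted p = 4.29e-08), the small GTPase gene Arl4c (4.60 ± 0.33, adjusted p = 5.23e-10), the pseudokinase gene Trib3 (4.36 ± 0.60, adjusted p = 8.96e-06), Rgcc (4.30 ± 0.51, adjusted p = 1.04e-06) and the surface receptor gene Slamf8 (4.28 ± 0.28, adjusted p = 1.92e-10). Ocstamp was nearly equal on the 3 arrays, at 4.42, 4.36 and 4.42, and ranged from -0.78 to 0.60 (median -0.23) after LPS. Clec9a, which encodes a lectin receptor best known from dendritic cells, read -1.49, -1.29 and -1.81 against -7.17 to -5.15 (median -5.91), with 4 of 7 LPS arrays above background, and rose by 4.51 ± 0.40, adjusted p = 1.51e-08. Slc6a19 was also above background on only 4 of 7 LPS arrays. None of these genes overlapped between the groups, so each also went the same way in the 3 matched sets.

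Genes that fell included secreted factors, metal-binding proteins and surface proteins of resting macrophages. Il19, a cytokine gene of the IL-10 family, read -4.78, -5.02 and -4.46 after IFN-γ plus LPS and 0.60 to 1.97 (median 0.89) after LPS, a change of -5.80 ± 0.62, adjusted p = 2.66e-07. Mt2, which encodes a metallothionein, read -0.45, -0.16 and -0.16 against 4.51 to 6.20 (median 5.37), a change of -5.63 ± 0.36, adjusted p = 1.35e-10. For the carbonyl reductase gene Cbr2 the values were -1.57, -0.57 and -0.99 against 3.86 to 5.17 (median 4.51), and it fell with a change of -5.53 ± 0.30, adjusted p = 1.28e-11. In all 3 genes every IFN-γ plus LPS array lay below every LPS array.

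Several falls ended below what the arrays could measure, so only a bound can be given. It sets the mean of the LPS arrays against the lowest signal called well above background on each IFN-γ plus LPS array, or the gene's own signal there if higher. That signal is the dimmest such spot of the whole array, so the bound holds for this floor and this background treatment only. The eosinophil-attracting chemokine gene Ccl24 was at least 17.7-fold lower (adjusted p = 1.09e-06), the ABC transporter gene Abca9 at least 13.4-fold (adjusted p = 6.94e-08), Shisal2b at least 13.4-fold (adjusted p = 6.47e-08), the metalloreductase gene Steap4 at least 12.1-fold (adjusted p = 2.66e-08), Bmper, whose protein binds bone morphogenetic proteins, at least 9.16-fold (adjusted p = 3.52e-06) and the platelet chemokine gene Ppbp at least 8.32-fold (adjusted p = 7.55e-11). Measurable on all 10 arrays were the falls of the adhesion receptor gene Adgre4 (-4.98 ± 0.86, adjusted p = 0.000130), the elastic fibre gene Fbln5 (-4.64 ± 0.28, adjusted p = 7.55e-11), Slco2b1, an organic anion transporter gene (-4.51 ± 0.62, adjusted p = 7.62e-06), and Alox5, the enzyme that starts leukotriene synthesis (-4.73 ± 0.67, adjusted p = 1.09e-05). The sialic acid lyase gene Npl also fell. It was above background on 1 of 3 IFN-γ plus LPS arrays, and its fitted change of -4.92 ± 0.40, adjusted p = 4.66e-09, was -1.48 with normexp, so its size is not a measured one. With normexp background correction, which compresses dim signals, Ccl24, Abca9, Shisal2b, Steap4, Bmper, Ppbp and Adgre4 no longer passed. The log2 change was then -1.12 for Ccl24, -1.02 for Abca9, -0.85 for Shisal2b, -0.66 for Steap4, -0.53 for Bmper and -0.49 for Ppbp. Each of these is smaller than the bound given above. For Adgre4 it was -2.31.

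**Figure D2:**
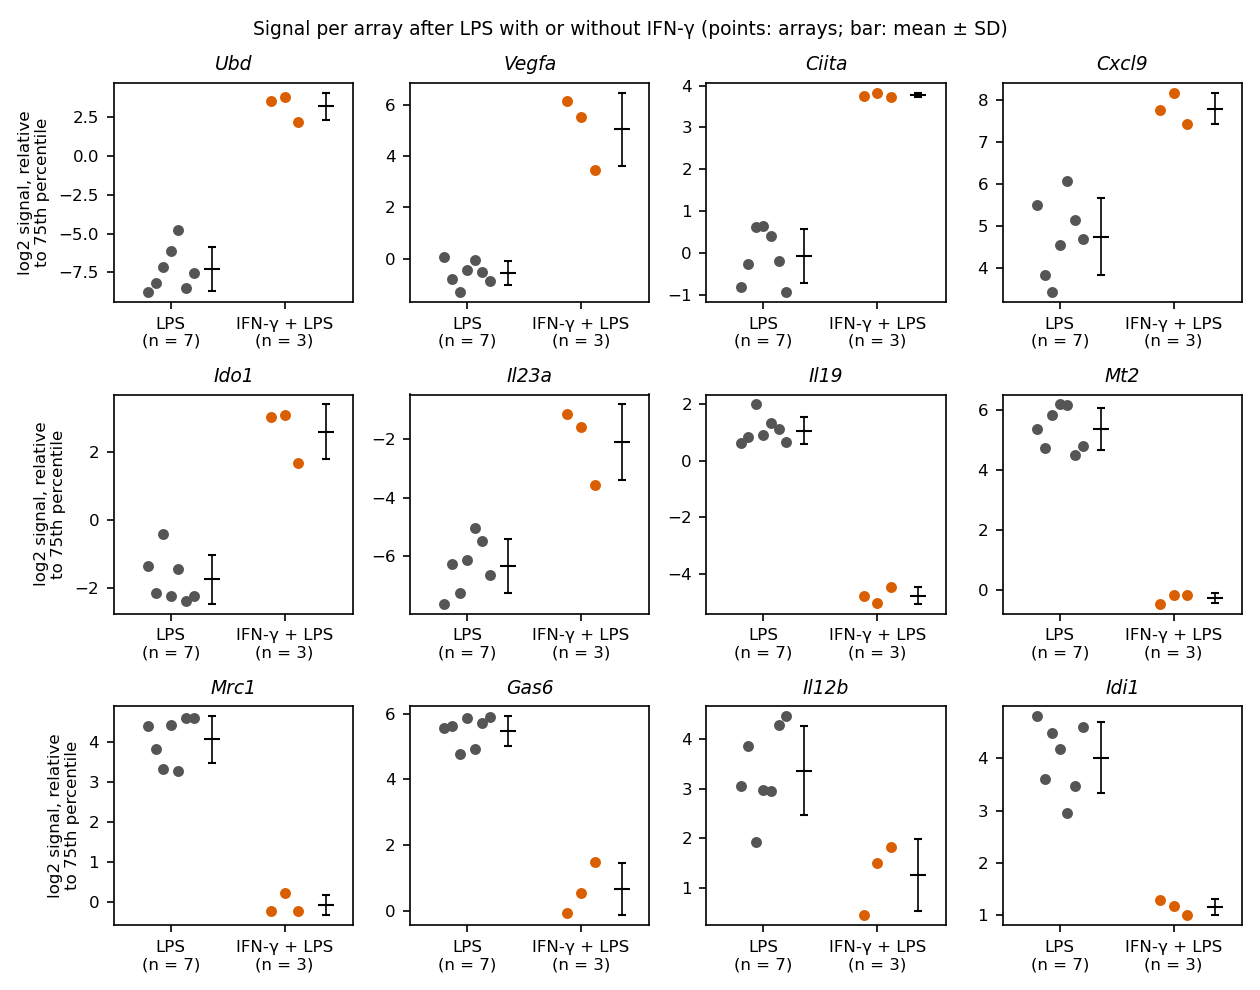
Log2 signal relative to the array's 75th percentile (y axis) of 12 genes on the 7 LPS arrays (grey) and the 3 IFN-γ plus LPS arrays (orange), with mean ± SD beside the points. The groups do not overlap in any of the 12 panels. Only 1 of the 7 LPS arrays is above background for Ubd and 2 of 7 for Il23a, so the height of those grey points is not a measured level.

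The receptor genes of IFN-γ, Ifngr1 (0.03 ± 0.31, adjusted p = 0.961) and Ifngr2 (0.10 ± 0.19, adjusted p = 0.756), did not pass the test in LPS-treated cells. Neither did the kinase gene Jak2 (-0.0011 ± 0.24, adjusted p = 0.998) or Stat3 (0.01 ± 0.28, adjusted p = 0.986), which transmits signals of the IL-6 family. The 95% interval ran from -0.50 to 0.50 for Jak2, which leaves room for changes of that size. Of the 20 genes of the receptor, JAK-STAT and IRF list, 6 rose and 2 fell (3 to 6 rises and 0 to 3 falls over the alternatives), and the list's median change was 0.06.

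Transcription factors of that list changed in both directions. Irf1, a direct target of the pathway whose promoter is printed above, read 8.80, 8.73 and 8.52 against 7.00 to 7.82 (median 7.46) and rose by 1.26 ± 0.22, adjusted p = 0.000181. Irf8, which guides macrophage differentiation and acts with IRF1 on many immune promoters, read 8.09, 8.23 and 7.35 against 5.03 to 6.85 (median 5.89) and rose by 1.99 ± 0.32, adjusted p = 5.41e-05. Both genes were higher on every IFN-γ plus LPS array than on any LPS array. Irf4 (1.80 ± 0.37, adjusted p = 0.000836), a factor of alternative activation and plasma cells, and Stat4 (1.73 ± 0.40, adjusted p = 0.00213), which transmits IL-12 signals, also rose. Irf4 was above background on 6 of 7 LPS arrays. Stat6, the mediator of IL-4 signals, rose by 0.76 ± 0.16, adjusted p = 0.000963, and Stat5a fell (-1.11 ± 0.27, adjusted p = 0.00381). Calls of Stat4 and Stat6 were lost when only experiments E, F and G or only the matched sets were used, Stat5a lost its call with median scaling, and Irf4 and Stat6 lost theirs with normexp.

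Interferon-inducible GTPases, which attack the membranes around intracellular microbes, divided into members that rose and members that did not pass. Of 16 tested, 6 rose and 0 fell (3 to 8 rises and 0 to 1 falls over the alternatives), with a median change of 0.33. Gbp4 read 7.67, 7.45 and 6.11 against 3.32 to 5.26 (median 4.53) and rose by 2.59 ± 0.48, adjusted p = 0.000260. Gbp8 rose by 2.37 ± 0.40, adjusted p = 0.000112, Gbp6 by 1.31 ± 0.32, adjusted p = 0.00343, Tgtp1 by 0.91 ± 0.20, adjusted p = 0.00119 and Iigp1 by 1.07 ± 0.35, adjusted p = 0.0281. Gbp3 read 6.83, 7.21 and 7.27 against 6.78 to 7.40 (median 7.04), so its arrays overlapped fully, with a change of 0.07 ± 0.31, adjusted p = 0.892. Gbp7 (0.05 ± 0.31, adjusted p = 0.929) and Gvin1 (-0.03 ± 0.19, adjusted p = 0.939) likewise did not pass. All 16 genes had risen with IFN-γ in the absence of LPS, as described further below. Gbp6 and Iigp1 missed the threshold with experiments E, F and G alone, Gbp6, Iigp1 and Tgtp1 with normexp, Gbp6 with the matched sets, and Iigp1 with quantile normalization. So did Gbp6 (1.02) and Iigp1 (0.92) without IFN-γ plus LPS array F, Iigp1 (1.09) without IFN-γ plus LPS array E, and Iigp1 (0.95) without LPS array C. Members of this family are close in sequence, and a probe may read more than 1 of them.

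Most genes of the type I interferon and antiviral list did not pass, and the same held over all tested genes (10.8% rose and 12.0% fell). Of 36 tested, 3 rose and 4 fell (0 to 3 rises and 1 to 10 falls over the alternatives), and the median was -0.19. With median scaling 2 rose and 1 fell, with a median of 0.07. Without the first scan day 1 rose and 7 fell, and with the matched sets as a block 3 rose and 10 fell. Leaving out IFN-γ plus LPS array E or F lowered the 7 calls to 2 and 4. Ifnb1, which encodes interferon beta, read 3.96, 2.49 and 1.99 against -1.30 to 2.36 (median 0.53) and rose by 2.33 ± 0.61, adjusted p = 0.00610, though the groups overlapped. The kinase gene Eif2ak2, which encodes the double-stranded RNA sensor PKR, read 2.53, 3.51 and 3.78 against 4.25 to 4.86 (median 4.60) and fell (-1.35 ± 0.24, adjusted p = 0.000228). Ddx58, which encodes the RNA sensor RIG-I, read 3.29, 2.40 and 3.74 against 4.12 to 4.68 (median 4.27) and fell (-1.17 ± 0.23, adjusted p = 0.000461). Rsad2 (0.04 ± 0.24, adjusted p = 0.921), the antiviral viperin gene, Zbp1 (0.03 ± 0.21, adjusted p = 0.933) and Oas3 (-0.01 ± 0.22, adjusted p = 0.989) did not pass, and a second Rsad2 probe went the other way (unadjusted p under 0.05). Ddx58 missed the threshold with median scaling, and Ifnb1 with experiments E, F and G alone and normexp. So did Ifnb1 (1.76) without IFN-γ plus LPS array E.

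Genes for antigen presentation through MHC class II rose after IFN-γ plus LPS in nearly every case. Of 13 tested genes 11 rose and 0 fell (9 to 12 rises and 0 falls over the alternatives), and the median change was 2.40. Ciita, the transactivator that switches on the class II genes, read 3.76, 3.82 and 3.72 against -0.93 to 0.66 (median -0.19) and rose by 3.84 ± 0.44, adjusted p = 6.84e-07. Its values on the 3 IFN-γ plus LPS arrays lay close together, and all were above every LPS array. H2-Eb1, a class II beta chain gene, read 6.20, 6.18 and 6.00 against 2.53 to 3.90 (median 3.31) and rose by 2.87 ± 0.28, adjusted p = 6.35e-08. The alpha chain gene H2-Aa read 5.68, 5.05 and 5.41 against 2.20 to 3.73 (median 2.89) and rose by 2.47 ± 0.38, adjusted p = 3.76e-05. Peptide loading genes rose to a like degree, with H2-DMb1 at 2.55 ± 0.21, adjusted p = 7.04e-09, H2-DMb2 at 2.62 ± 0.25, adjusted p = 3.73e-08 and H2-Oa at 2.92 ± 0.36, adjusted p = 1.79e-06. In 12 of the 13 genes every IFN-γ plus LPS array was above every LPS array, against 8.59% of all genes. The 2 members that did not pass were the protease gene Ctss (0.39 ± 0.16, adjusted p = 0.0901) and the thiol reductase gene Ifi30 (0.55 ± 0.21, adjusted p = 0.0580), both of which act in the endosome. Ifi30 passed in 4 of 25 alternatives. H2-DMb1 and H2-DMb2 are close in sequence and may share signal.

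MHC class I loading and immunoproteasome genes rose less. Of 18 tested, 8 rose and 0 fell (0 to 9 rises and 0 falls over the alternatives), with a median of 0.36. Without the first scan day none of the 18 passed, with median scaling 2 did, and without IFN-γ plus LPS array E, F or G 5, 2 and 2 did. Tapbpl, which encodes a peptide editor, read 3.82, 3.78 and 4.43 against 3.02 to 3.90 (median 3.16) and rose by 0.74 ± 0.21, adjusted p = 0.00974. The tapasin gene Tapbp rose by 0.63 ± 0.17, adjusted p = 0.00692, and in both genes the groups overlapped. Psmb8 (0.19 ± 0.19, adjusted p = 0.532) and Psmb10 (-0.18 ± 0.22, adjusted p = 0.608), catalytic subunits of the immunoproteasome, and Calr (0.20 ± 0.24, adjusted p = 0.603) did not pass. Tapbp and Tapbpl missed the threshold with experiments E, F and G alone, only the 2 groups in the model and normexp, and Tapbp with quantile normalization, median scaling, the mean of all probes and the matched sets. So did Tapbp (0.56) without IFN-γ plus LPS array F, Tapbp (0.57) and Tapbpl (0.70) without the first scan day, and Tapbpl (0.54) without IFN-γ plus LPS array G.

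**Figure D3:**
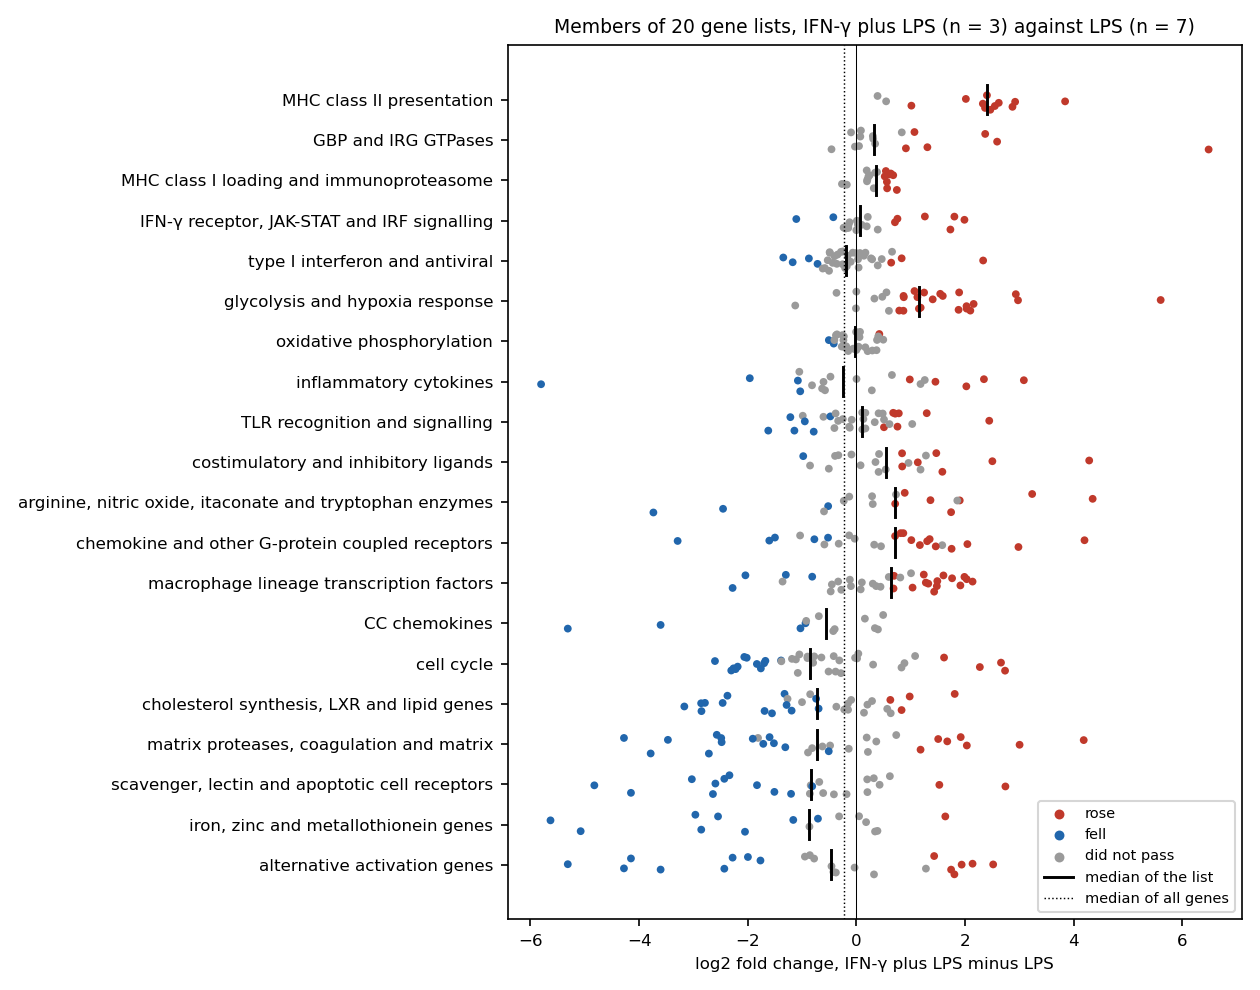
Log2 fold change of IFN-γ plus LPS against LPS (x axis) for the tested members of 20 gene lists (y axis), 1 point a gene, red where it rose, blue where it fell and grey where it did not pass at adjusted p under 0.05. The black bar is the list's median, 2.40 for MHC class II presentation and 1.15 for glycolysis and hypoxia, and the dotted line is the median of all genes (-0.23).

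Chemokines that attract T cells through CXCR3 were higher after IFN-γ plus LPS, while several others were lower. Cxcl9 read 7.77, 8.17 and 7.43 against 3.42 to 6.06 (median 4.69) and rose by 3.05 ± 0.53, adjusted p = 0.000146. Cxcl11 read 7.06, 6.62 and 5.84 against 3.04 to 4.56 (median 3.93) and rose by 2.52 ± 0.38, adjusted p = 2.14e-05. Cxcl10 read 8.55, 8.65 and 8.88 against 8.05 to 8.46 (median 8.33), so every IFN-γ plus LPS array was above every LPS array, but the change of 0.38 ± 0.27, adjusted p = 0.353 did not pass. Among 5 neutrophil-attracting CXC chemokines, Cxcl2 rose (1.55 ± 0.50, adjusted p = 0.0242), Cxcl3 and Ppbp fell, with -2.23 ± 0.65, adjusted p = 0.0141 for Cxcl3, and Cxcl1 did not pass (1.28 ± 0.56, adjusted p = 0.108). Cxcl1 passed in 2 of 25 alternatives, with slide as a block (1.78) and without LPS array F (1.58). None of 12 CC chemokines rose and 4 fell (0 rises and 2 to 5 falls over the alternatives). Ccl17, which attracts Th2 cells, read -4.05, -4.16 and -4.14 against -2.09 to 0.97 (median -0.44) and fell (-3.60 ± 0.49, adjusted p = 7.13e-06), and Ccl9 fell too (-1.03 ± 0.21, adjusted p = 0.000709). Ccl2 (0.49 ± 0.77, adjusted p = 0.692), Ccl3 (0.34 ± 0.33, adjusted p = 0.516) and Ccl7 (0.16 ± 0.75, adjusted p = 0.904) did not pass. Ccl9, Cxcl2 and Cxcl3 missed the threshold with median scaling and the matched sets, Cxcl2 and Cxcl3 with experiments E, F and G alone and normexp, and Cxcl2 with quantile normalization. So did Cxcl2 (1.43) and Cxcl3 (-2.07) without IFN-γ plus LPS array E, Cxcl2 (1.55) and Cxcl3 (-2.10) without IFN-γ plus LPS array F, and Cxcl2 (1.26) without the first scan day.

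Cytokines of the IL-12 family changed in opposite directions. Il12b, which encodes the p40 chain shared by IL-12 and IL-23, read 0.46, 1.51 and 1.82 against 1.94 to 4.46 (median 3.05) and fell (-2.09 ± 0.54, adjusted p = 0.00571). Il12a, the p35 chain of IL-12, read -4.09, -3.77 and -3.96 against -3.54 to -0.39 (median -2.07) and fell (-2.04 ± 0.55, adjusted p = 0.00852). Il23a, the p19 chain of IL-23, read -1.15, -1.60 and -3.59 against -7.63 to -5.04 (median -6.28) and rose by 4.24 ± 0.67, adjusted p = 4.60e-05, with 2 of 7 LPS arrays above background and a change of 2.04 with normexp. None of the 3 genes overlapped between groups, so each also went the same way in the 3 matched sets. Ebi3, the partner chain in IL-27 and IL-35, fell (-0.75 ± 0.19, adjusted p = 0.00519), and Il27 did not pass (0.25 ± 0.40, adjusted p = 0.699). Ebi3 missed the threshold with experiments E, F and G alone, median scaling, the matched sets and the matched sets with a block, and Il12a with normexp. So did Il12b (-1.69) without IFN-γ plus LPS array E.

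The other inflammatory cytokines showed no common direction, with 5 rises and 4 falls among 20 (1 to 7 rises and 4 to 7 falls over the alternatives) and a median of -0.24, which was 0.02 with median scaling. Tnf read 8.12, 8.14 and 7.99 against 6.22 to 7.05 (median 6.72) and rose by 1.45 ± 0.39, adjusted p = 0.00803. Inhba, the activin A chain gene, read 3.61, 4.13 and 3.46 against 0.07 to 1.27 (median 0.63) and rose by 3.08 ± 0.34, adjusted p = 3.79e-07, and Il1a (2.35 ± 0.67, adjusted p = 0.0120) and the lymphotoxin gene Lta (2.02 ± 0.47, adjusted p = 0.00246) rose. Edn1, which encodes the vasoconstrictor endothelin-1, read 2.64, 4.17 and 4.75 against 5.20 to 6.20 (median 5.95) and fell (-1.96 ± 0.41, adjusted p = 0.000902). Il6 (-0.63 ± 0.62, adjusted p = 0.515) and Il1b (0.65 ± 0.58, adjusted p = 0.471) did not pass, and Il10, the main anti-inflammatory cytokine gene, did not either (-0.34 ± 0.27, adjusted p = 0.418). Il1a, Lta and Tnf missed the threshold with experiments E, F and G alone, Il1a with the matched sets and the matched sets with a block, and Tnf with normexp. So did Il1a (1.81) without IFN-γ plus LPS array E, and Il1a (2.37) and Tnf (1.34) without the first scan day.

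Of 30 feedback and regulatory genes 9 rose and 4 fell (4 to 11 rises and 1 to 5 falls over the alternatives). With the matched sets as a block 5 rose and 4 fell, and leaving out IFN-γ plus LPS array E or F lowered the 13 calls to 6 and 8. Il1r2, the decoy receptor for IL-1, read 0.32, 0.54 and -1.12 against -4.09 to -3.24 (median -3.79) and rose by 3.63 ± 0.36, adjusted p = 9.26e-08. The MAP kinase phosphatase genes Dusp4 (2.40 ± 0.46, adjusted p = 0.000408) and Dusp10 (2.20 ± 0.23, adjusted p = 1.74e-07) and the NF-κB inhibitor gene Nfkbie (1.30 ± 0.19, adjusted p = 1.40e-05) rose, while Il1rl1, the IL-33 receptor gene, fell (-1.84 ± 0.49, adjusted p = 0.00743). Socs1, the feedback inhibitor of JAK kinases, read 6.95, 7.08 and 6.80 against 5.14 to 6.68 (median 6.20) and rose by 0.80 ± 0.24, adjusted p = 0.0166, and Socs3, which restrains IL-6 signals, had a change of 0.35 ± 0.33, adjusted p = 0.493. Il1rl1 missed the threshold with slide as a block, Il1rl1 and Socs1 with normexp and median scaling, and Socs1 with experiments E, F and G alone, only the 2 groups in the model, the matched sets and the matched sets with a block. So did Il1rl1 (-1.48) without IFN-γ plus LPS array G, Socs1 (0.80) without IFN-γ plus LPS array E, and Socs1 (0.73) without IFN-γ plus LPS array F.

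The LPS receptor itself did not pass, and its partners changed in opposite directions. Tlr4 read 0.87, 1.39 and 1.37 against 0.86 to 1.60 (median 1.52), a change of -0.13 ± 0.28, adjusted p = 0.773. Cd14, which passes LPS to TLR4, read 8.43, 8.48 and 8.25 against 7.09 to 7.99 (median 7.64) and rose by 0.76 ± 0.20, adjusted p = 0.00619, and Ly96, which encodes the MD-2 subunit of the receptor, read 2.56, 2.83 and 2.77 against 3.10 to 4.46 (median 3.71) and fell (-1.14 ± 0.26, adjusted p = 0.00190). Of the 33 genes for TLR recognition and signalling, 7 rose and 6 fell (1 to 9 rises and 2 to 9 falls over the alternatives), with a median of 0.11. Without IFN-γ plus LPS array F the 13 calls were 7. The adaptor gene Traf3 rose by 2.45 ± 0.27, adjusted p = 4.56e-07 and Tlr3, the double-stranded RNA receptor, fell (-1.62 ± 0.28, adjusted p = 0.000155). Cd14 missed the threshold with experiments E, F and G alone, normexp, quantile normalization and the matched sets with a block, and Cd14 and Ly96 with the matched sets.

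Genes of the costimulatory and inhibitory ligand list, which also holds receptors such as Havcr2, rose in 7 of 21 cases and fell in 1 (3 to 11 rises and 0 to 3 falls over the alternatives). Without the first scan day 4 rose and 3 fell, and without IFN-γ plus LPS array E or F the 8 calls were 5. The costimulatory gene Cd86 read 4.09, 4.34 and 3.67 against 1.89 to 3.39 (median 2.28) and rose by 1.58 ± 0.32, adjusted p = 0.000756. Cd274, the gene of the T cell inhibitor PD-L1, read 8.26, 8.34 and 7.27 against 5.94 to 6.95 (median 6.48) and rose by 1.47 ± 0.34, adjusted p = 0.00246. Havcr2, the TIM-3 gene, read 3.35, 4.02 and 3.67 against 0.36 to 2.06 (median 1.14) and rose by 2.50 ± 0.37, adjusted p = 1.81e-05, and the galectin-9 gene Lgals9, whose protein binds TIM-3, fell (-0.98 ± 0.28, adjusted p = 0.0117). Slamf1 (0.08 ± 0.59, adjusted p = 0.942) and Cd69 (-0.39 ± 0.34, adjusted p = 0.462) did not pass. Cd69 passed in 1 of 25 alternatives, without the first scan day (-0.68). Cd274 missed the threshold with experiments E, F and G alone and normexp, Cd274 and Lgals9 with the matched sets, and Lgals9 with median scaling. So did Lgals9 (-0.83) without IFN-γ plus LPS array G.

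Of 17 enzyme genes of arginine, nitric oxide, itaconate and tryptophan metabolism 7 rose and 3 fell (3 to 9 rises and 1 to 3 falls over the alternatives). Leaving out IFN-γ plus LPS array E or F lowered the 10 calls to 4 and 5. Ido1, the enzyme that opens the kynurenine pathway, read 3.06, 3.09 and 1.69 against -2.37 to -0.40 (median -2.14) and rose by 4.35 ± 0.46, adjusted p = 2.60e-07. Kynu, which cleaves kynurenine, read 1.51, 0.40 and 0.33 against -3.03 to -1.80 (median -2.69) and rose by 3.24 ± 0.55, adjusted p = 0.000100. Kmo, the hydroxylase that competes for the same substrate, read -4.93, -5.99 and -5.24 against -2.26 to -1.07 (median -1.50) and fell (-3.74 ± 0.50, adjusted p = 5.31e-06). None of the 3 overlapped between the groups. Nos2, the inducible nitric oxide synthase, read 3.41, 3.58 and 2.22 against 0.37 to 1.85 (median 1.06) and rose by 1.90 ± 0.61, adjusted p = 0.0259, and the spermidine synthase gene Srm fell (-2.45 ± 0.60, adjusted p = 0.00371). Kmo and Nos2 missed the threshold with normexp, Nos2 and Srm with experiments E, F and G alone, and Srm with the matched sets. So did Nos2 (1.73) and Srm (-1.95) without IFN-γ plus LPS array E, Nos2 (1.65) without IFN-γ plus LPS array F, and Nos2 (1.96) without the first scan day.

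Enzymes of lipid mediators also divided. Of 15 genes 4 rose and 4 fell (1 to 5 rises and 2 to 6 falls over the alternatives). Besides Alox5, the leukotriene C4 synthase gene Ltc4s read -3.47, -4.02 and -3.47 against -1.13 to 0.40 (median -0.03) and fell (-3.45 ± 0.28, adjusted p = 4.98e-09), and the cyclooxygenase-1 gene Ptgs1 fell (-2.62 ± 0.49, adjusted p = 0.000297). Ptgs2, the inducible cyclooxygenase-2, read 7.39, 7.17 and 6.13 against 4.55 to 5.04 (median 4.82) and rose by 2.09 ± 0.51, adjusted p = 0.00382. Ptges, the inducible prostaglandin E synthase, did not pass (-0.60 ± 0.33, adjusted p = 0.216). Ptgs1 and Ptgs2 missed the threshold with normexp, and Ptgs2 with experiments E, F and G alone and the matched sets.

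Genes of glycolysis and of the hypoxia response rose together. Of 29 tested, 21 rose and 0 fell (14 to 22 rises and 0 falls over the alternatives), and the median change was 1.15. In 21 of the 29 every IFN-γ plus LPS array was above every LPS array, against 8.59% of all genes. Vegfa, the endothelial growth factor gene and a target of hypoxia-inducible factor, read 6.16, 5.52 and 3.44 against -1.30 to 0.05 (median -0.51) and rose by 5.60 ± 0.48, adjusted p = 8.19e-09. Hilpda, a lipid droplet protein gene of the same response and not a member of the list, read 5.57, 5.34 and 2.51 against -1.40 to 1.23 (median -0.93) and rose by 5.12 ± 0.56, adjusted p = 4.04e-07. The mitophagy gene Bnip3 read 5.36, 5.29 and 3.90 against 1.51 to 2.63 (median 1.64) and rose by 2.93 ± 0.33, adjusted p = 4.56e-07. Slc2a1, which encodes the glucose transporter GLUT1, read 6.70, 6.91 and 6.04 against 3.87 to 5.55 (median 4.24) and rose by 2.16 ± 0.34, adjusted p = 4.08e-05, and Slc16a3, the lactate exporter MCT4, read 7.43, 7.88 and 7.39 against 5.02 to 6.12 (median 5.54) and rose by 2.10 ± 0.23, adjusted p = 3.97e-07. Egln3, an oxygen-sensing hydroxylase gene above background on 5 of 7 LPS arrays, rose by 2.97 ± 0.53, adjusted p = 0.000191. Array G was the lowest of the 3 IFN-γ plus LPS arrays for Vegfa, Hilpda, Bnip3, Slc2a1, Slc16a3 and Egln3, and still above all 7 LPS arrays. Pfkfb3 (-0.01 ± 0.37, adjusted p = 0.991), Car9 (-0.0006 ± 0.18, adjusted p = 0.999) and Slc2a3 (-0.37 ± 0.38, adjusted p = 0.542) did not pass.

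Few subunits of oxidative phosphorylation passed, with 1 rise and 2 falls among 29 (0 to 2 rises and 0 to 3 falls over the alternatives) and a median of -0.02. Cox4i1 read 6.28, 6.50 and 6.75 against 6.21 to 6.70 (median 6.54), a change of -0.01 ± 0.13, adjusted p = 0.984, and Atp5a1 (0.02 ± 0.19, adjusted p = 0.956) and the cytochrome c gene Cycs (0.0012 ± 0.25, adjusted p = 0.998) did not pass.

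Cholesterol and fatty acid synthesis genes fell more often than they rose. In the list of 30 cholesterol, LXR and lipid genes 13 fell and 4 rose (2 to 4 rises and 5 to 17 falls over the alternatives), with a median of -0.72. With median scaling 7 fell and 4 rose. Idi1, an isomerase of the mevalonate pathway, read 1.29, 1.18 and 1.00 against 2.96 to 4.81 (median 4.17) and fell (-2.86 ± 0.48, adjusted p = 9.60e-05). Fdft1, the squalene synthase, read -1.27, -1.59 and -0.65 against 1.22 to 2.72 (median 1.35) and fell (-2.79 ± 0.40, adjusted p = 1.27e-05). The pathway genes Hmgcs1 (-2.37 ± 0.49, adjusted p = 0.000774) and Sqle (-2.46 ± 0.62, adjusted p = 0.00523) and the fatty acid synthase gene Fasn (-3.17 ± 0.65, adjusted p = 0.000752) fell as well. Among LPS arrays, C read highest and E lowest for Sqle, at 3.96 and 1.17, and the IFN-γ plus LPS arrays were at -0.43, 0.38 and 0.69. The cholesterol exporter gene Abca1 (-0.10 ± 0.35, adjusted p = 0.871) and the fatty acid binding protein gene Fabp4 (0.14 ± 0.28, adjusted p = 0.760) did not pass. Fasn and Sqle missed the threshold with experiments E, F and G alone. So did Sqle (-2.14) without IFN-γ plus LPS array E.

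**Figure D4:**
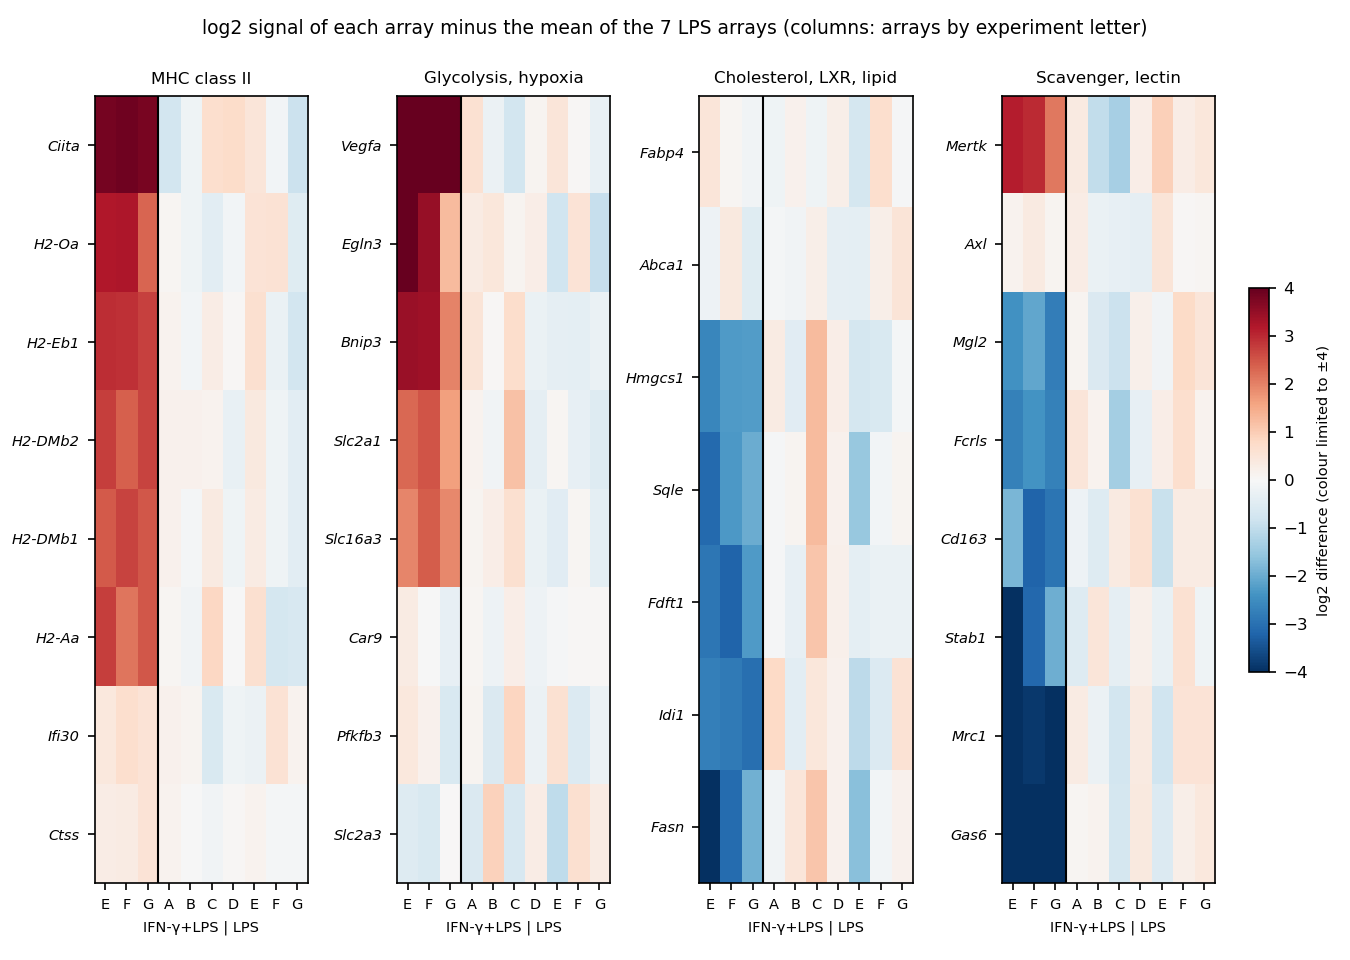
Log2 signal of each array minus the mean of the 7 LPS arrays (colour, limited to ±4) for the named members of 4 gene lists (rows), on IFN-γ plus LPS arrays E, F and G (left of the line) and LPS arrays A to G (right). MHC class II and glycolysis genes are mainly red on all 3 IFN-γ plus LPS arrays, sterol enzymes and scavenger receptors mainly blue, and LPS array E is low for Sqle, Idi1 and Fasn.

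Receptors for the uptake of debris and sugars, which mark resting and alternatively activated macrophages, fell more often than they rose. Of 24 tested scavenger, lectin and apoptotic cell receptor genes 11 fell and 2 rose (1 to 3 rises and 9 to 13 falls over the alternatives), with a median of -0.83. Mrc1, the mannose receptor, read -0.22, 0.22 and -0.22 against 3.29 to 4.62 (median 4.40) and fell (-4.15 ± 0.27, adjusted p = 1.35e-10). Stab1 read -0.55, 0.29 and 1.49 against 2.93 to 4.05 (median 3.28) and fell (-3.03 ± 0.39, adjusted p = 3.39e-06), and Fcrls fell (-2.60 ± 0.35, adjusted p = 5.36e-06). Cd163, the haemoglobin scavenger receptor, was at least 2.07-fold lower (adjusted p = 1.27e-05), with none of the 3 IFN-γ plus LPS arrays and 6 of 7 LPS arrays above background. Gas6, the ligand that bridges dying cells to MERTK and AXL, read -0.08, 0.54 and 1.49 against 4.76 to 5.89 (median 5.61) and fell (-4.82 ± 0.39, adjusted p = 4.98e-09), whereas Mertk itself read 3.81, 3.66 and 2.80 against -0.65 to 1.64 (median 0.96) and rose by 2.74 ± 0.52, adjusted p = 0.000346. Axl did not pass (0.20 ± 0.22, adjusted p = 0.562). The sign of Cd163 turned with normexp.

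Among 23 genes of alternative activation 8 fell and 6 rose (3 to 7 rises and 4 to 11 falls over the alternatives). F13a1, a transglutaminase of coagulation, read -3.67, -3.47 and -3.69 against -1.18 to 1.50 (median 0.85) and fell (-4.28 ± 0.53, adjusted p = 2.34e-06), and the lectin gene Mgl2 fell (-2.43 ± 0.33, adjusted p = 7.24e-06). Flt1, a VEGF receptor gene, read 4.26, 4.39 and 4.36 against 0.60 to 3.02 (median 1.86) and rose by 2.52 ± 0.36, adjusted p = 1.35e-05. Retnla was not well above background on any array of either group. Mgl2 missed the threshold with normexp. Of 15 Fc receptor and phagocytosis genes 1 rose and 2 fell (0 to 2 rises and 1 to 4 falls over the alternatives). The inhibitory Fc receptor gene Fcgr2b read 3.81, 4.26 and 4.21 against 6.61 to 7.30 (median 7.14) and fell (-2.92 ± 0.25, adjusted p = 8.19e-09), and Trem2 fell (-1.08 ± 0.19, adjusted p = 0.000143), the latter not passing with median scaling or with experiments E, F and G alone.

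Genes of G-protein coupled receptors rose in 12 of 25 cases and fell in 5 (4 to 12 rises and 1 to 7 falls over the alternatives). With normexp 4 rose and 1 fell, without the first scan day 8 rose and 4 fell, and without IFN-γ plus LPS array E or F the 17 calls were 7 and 9. Cnr2, the cannabinoid receptor of leukocytes, read 0.11, 0.62 and -0.53 against -5.29 to -2.34 (median -4.51) and rose by 4.20 ± 0.53, adjusted p = 2.52e-06. Cxcr4, the receptor for CXCL12, read -1.57, -1.89 and -3.52 against -5.99 to -4.83 (median -5.01) and rose by 2.98 ± 0.44, adjusted p = 2.05e-05, with 6 of 7 LPS arrays above background. Cx3cr1, the fractalkine receptor, read -4.87, -5.21 and -2.74 against -1.62 to -0.02 (median -1.17) and fell (-3.29 ± 0.51, adjusted p = 3.41e-05). Hcar2, the niacin receptor gene, rose by 2.04 ± 0.45, adjusted p = 0.00168, and the acid sensor gene Gpr65 rose by 1.75 ± 0.32, adjusted p = 0.000233. Cx3cr1 missed the threshold with normexp and Hcar2 in the matched sets.

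Transcription factors of the macrophage lineage rose in 15 of 34 cases and fell in 4 (6 to 17 rises and 1 to 4 falls over the alternatives), with a median of 0.64. Without IFN-γ plus LPS array E the 19 calls were 9. Klf4 read 5.81, 4.56 and 4.48 against 1.94 to 3.21 (median 2.94) and rose by 2.14 ± 0.33, adjusted p = 2.90e-05. Tfec read 0.13, 0.46 and 0.75 against 2.01 to 3.04 (median 2.80) and fell (-2.28 ± 0.20, adjusted p = 1.58e-08), and Cebpd read 4.84, 5.87 and 6.86 against 7.57 to 8.12 (median 7.95) and fell (-2.04 ± 0.36, adjusted p = 0.000154). The lineage factors Cebpa (-0.10 ± 0.35, adjusted p = 0.864) and Zeb2 (0.08 ± 0.21, adjusted p = 0.825) did not pass. Cebpd missed the threshold with experiments E, F and G alone.

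Metal handling genes fell in 8 of 15 cases and rose in 1 (1 to 2 rises and 6 to 9 falls over the alternatives), with a median of -0.86. Mt1 read 0.67, 0.80 and 0.12 against 2.85 to 4.22 (median 3.25) and fell (-2.96 ± 0.32, adjusted p = 3.45e-07), beside the larger fall of Mt2. Lcn2, the siderophore-binding lipocalin, read -0.37, -0.05 and -0.62 against 1.02 to 3.24 (median 2.49) and fell (-2.55 ± 0.55, adjusted p = 0.00124), and the ceruloplasmin gene Cp (-2.86 ± 0.69, adjusted p = 0.00346) and the transferrin receptor gene Tfrc (-2.05 ± 0.29, adjusted p = 1.41e-05) fell. The iron exporter gene Slc40a1 did not pass (0.05 ± 0.42, adjusted p = 0.948). Metallothionein probes are close in sequence and may share signal.

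Complement genes showed 4 rises and 1 fall of 13 (2 to 6 rises and 1 to 2 falls over the alternatives). C4b read 1.58, 1.47 and 1.64 against -2.60 to -1.40 (median -2.13) and rose by 3.65 ± 0.31, adjusted p = 8.15e-09, and C1s1, a protease of the first component, read 1.75, 1.38 and 0.88 against -2.96 to -2.11 (median -2.31) and rose by 3.77 ± 0.27, adjusted p = 5.23e-10. C1qb did not pass (-0.02 ± 0.19, adjusted p = 0.954).

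Matrix and coagulation genes fell in 13 of 30 cases and rose in 7 (5 to 8 rises and 10 to 15 falls over the alternatives). The thrombospondin gene Thbs1 read 5.24, 4.01 and 2.52 against -1.06 to 0.37 (median -0.17) and rose by 4.18 ± 0.79, adjusted p = 0.000327, and the urokinase gene Plau rose by 3.00 ± 0.43, adjusted p = 1.39e-05. Versican, encoded by Vcan, read -1.01, -1.59 and -1.20 against 1.50 to 2.65 (median 2.18) and fell (-3.47 ± 0.40, adjusted p = 9.29e-07), and the aggrecanase gene Adamts4 fell (-3.79 ± 0.66, adjusted p = 0.000152). Of 18 Notch pathway and repair growth factor genes 5 rose and 3 fell (2 to 7 rises and 2 to 4 falls over the alternatives). The platelet-derived growth factor gene Pdgfb rose by 3.40 ± 0.37, adjusted p = 3.79e-07, and Igf1 read 3.47, 3.06 and 3.69 against 4.99 to 5.92 (median 5.31) and fell (-1.98 ± 0.22, adjusted p = 4.57e-07).

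Of 38 cell cycle genes 4 rose and 12 fell (4 to 7 rises and 2 to 21 falls over the alternatives), with a median of -0.85. With median scaling 5 rose and 4 fell, and without the first scan day 4 rose and 6 fell. With the matched sets as a block 6 rose and 21 fell, with a median of -1.14. Leaving out IFN-γ plus LPS array E or F lowered the 16 calls to 9 and 10. The cyclin genes Ccnd1 (2.74 ± 0.57, adjusted p = 0.000895) and Ccne1 (2.66 ± 0.41, adjusted p = 3.34e-05), which act at entry into the cycle, and the replication licensing gene Cdt1 (2.27 ± 0.39, adjusted p = 0.000112) rose. The mitotic cyclin genes Ccnb1 (-2.30 ± 0.50, adjusted p = 0.00125) and Ccnb2 (-2.60 ± 0.43, adjusted p = 8.65e-05) and the mitotic kinase gene Plk1 (-2.26 ± 0.46, adjusted p = 0.000757) fell. These 6 were named for the size of their change, and phases were not compared. Ccne1 read 5.13, 4.53 and 4.57 against 1.77 to 2.41 (median 2.07), and Ccnb2 read 0.35, 0.59 and 2.14 against 3.10 to 4.30 (median 3.43), without overlap in either gene. Plk1 missed the threshold with experiments E, F and G alone.

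Survival and stress genes were mixed as well, with 6 rises and 3 falls among 25 inflammasome and cell death genes (3 to 6 rises and 0 to 3 falls over the alternatives) and 6 and 3 among 18 NADPH oxidase and antioxidant genes (2 to 8 rises and 1 to 3 falls over the alternatives). The BH3-only gene Pmaip1 (2.03 ± 0.37, adjusted p = 0.000213), the inflammasome sensor gene Nlrc4 (1.61 ± 0.35, adjusted p = 0.00131) and Bcl2 (2.17 ± 0.60, adjusted p = 0.00953) rose, and the inflammasome adaptor gene Pycard fell (-0.96 ± 0.21, adjusted p = 0.00125). Prdx1, a peroxiredoxin gene, read 7.11, 7.17 and 6.72 against 5.69 to 6.05 (median 5.83) and rose by 1.16 ± 0.14, adjusted p = 1.78e-06. The cystine transporter gene Slc7a11 (2.03 ± 0.40, adjusted p = 0.000550) and the sulfiredoxin gene Srxn1 (1.90 ± 0.35, adjusted p = 0.000258) rose, while the quinone reductase gene Nqo1 (-2.37 ± 0.54, adjusted p = 0.00199) fell. The superoxide dismutase gene Sod2 (0.08 ± 0.21, adjusted p = 0.808) and the NADPH oxidase subunit gene Cybb (0.13 ± 0.26, adjusted p = 0.756) did not pass. Bcl2, Nqo1 and Pycard missed the threshold with experiments E, F and G alone, Nqo1 and Slc7a11 with normexp, Nqo1 and Pycard with the matched sets, and Pycard with median scaling. So did Bcl2 (2.08) without the first scan day.

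The effect of IFN-γ after LPS was then set beside its effect without LPS, measured on 3 IFN-γ and 7 untreated arrays that are not part of the comparison above. Without LPS 2855 genes rose (12.7%) and 2935 fell (13.1%). Of the genes that rose with IFN-γ in LPS-treated cells, 1236 also rose without LPS, which is 51.2% of the first list and 43.3% of the second. For falls the overlap was 1342 genes, 50.02% and 45.7%. A gene that rose after LPS and fell without it was seen in 53 cases, and the opposite in 123. The difference between both effects was tested as an interaction, and 683 genes (3.04%) had a higher and 1180 (5.26%) a lower IFN-γ effect in the presence of LPS. Higher and lower refer to the signed log2 effect, so a fall that was larger with LPS counts as lower. With median scaling the effect without LPS had 3995 rises and 1129 falls, 78.0% rises in place of 49.3%, and the interaction was higher for 255 and lower for 779, 24.7% higher in place of 36.7%. Each IFN-γ array shared a slide with the IFN-γ plus LPS array of the same letter.

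For several of the largest changes the IFN-γ effect had a similar size with and without LPS. Ciita rose by 3.54 ± 0.44, adjusted p = 9.86e-07 without LPS and by 3.84 ± 0.44, adjusted p = 6.84e-07 with it, and the fall of Mrc1 was -4.32 ± 0.27, adjusted p = 1.15e-11 and -4.15 ± 0.27, adjusted p = 1.35e-10. For these genes the interaction was 0.31 ± 0.62, adjusted p = 0.937 and 0.17 ± 0.38, adjusted p = 0.948, neither past the threshold, with 95% intervals from -0.97 to 1.58 and -0.62 to 0.95. Ubd was above background on no untreated array, and by the same kind of bound was at least 508-fold higher with IFN-γ alone (adjusted p = 1.03e-10). No member of the MHC class II list passed the interaction test in either direction, and 12 of its 13 members had risen without LPS. Of the 29 glycolysis and hypoxia genes 22 had risen and 1 had fallen without LPS, and the interaction passed for 1 upward and 4 downward.

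Another set of genes showed a lower signed IFN-γ effect when LPS was present, and in some of them the direction turned. In the GTPase list all 16 members had risen without LPS, with a median of 3.30, and the interaction was lower for all 16. In the type I interferon and antiviral list 31 of 36 had risen without LPS, with a median of 1.20, and 25 had a lower interaction. Cxcl9 rose by 10.47 ± 0.53, adjusted p = 3.93e-13 without LPS and 3.05 ± 0.53, adjusted p = 0.000146 with it, an interaction of -7.42 ± 0.75, adjusted p = 4.75e-07. Cxcl11 had 8.55 ± 0.38, adjusted p = 2.30e-14 and 2.52 ± 0.38, adjusted p = 2.14e-05, an interaction of -6.03 ± 0.53, adjusted p = 6.59e-08. Ptgs2 had 8.94 ± 0.51, adjusted p = 3.70e-12 and 2.09 ± 0.51, adjusted p = 0.00382 (interaction -6.85 ± 0.73, adjusted p = 9.69e-07), with 3 of 7 untreated arrays above background. Il6, above background on no untreated array, was by the same kind of bound at least 14.5-fold higher with IFN-γ alone (adjusted p = 2.55e-07) and had -0.63 ± 0.62, adjusted p = 0.515 with LPS. Jak2, which did not pass with LPS, had risen by 2.48 ± 0.24, adjusted p = 2.58e-08 without it. Edn1 and Vcan turned direction, from 4.32 ± 0.41, adjusted p = 1.55e-08 to -1.96 ± 0.41, adjusted p = 0.000902 and from 2.01 ± 0.40, adjusted p = 0.000480 to -3.47 ± 0.40, adjusted p = 9.29e-07, with interactions of -6.28 ± 0.58, adjusted p = 1.24e-07 and -5.48 ± 0.57, adjusted p = 7.09e-07. Without IFN-γ and LPS, Edn1 was above background on 2 of 7 arrays and Vcan on 6. Promoters of the 867 genes with a lower interaction held ISRE in 8.3% and GAS in 8.65%, and those of the 472 genes with a higher interaction held them in 1.27% and 3.6%, a description without a test.

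Other genes showed a higher IFN-γ effect when LPS was present. Arl4c had 0.40 ± 0.33, adjusted p = 0.376 and 4.60 ± 0.33, adjusted p = 5.23e-10 (interaction 4.20 ± 0.46, adjusted p = 1.69e-06), and Cnr2 had -0.04 ± 0.53, adjusted p = 0.962 and 4.20 ± 0.53, adjusted p = 2.52e-06 (interaction 4.24 ± 0.75, adjusted p = 0.000463). Irf4 fell without LPS (-2.67 ± 0.37, adjusted p = 6.08e-06) and rose with it (1.80 ± 0.37, adjusted p = 0.000836), an interaction of 4.47 ± 0.53, adjusted p = 4.42e-06. Cxcr4 had -1.21 ± 0.44, adjusted p = 0.0452 and 2.98 ± 0.44, adjusted p = 2.05e-05 (interaction 4.19 ± 0.63, adjusted p = 7.20e-05). In the other direction, the signed effect was lower with LPS for Il19 and Mt2, among the largest falls after LPS. Without LPS they had changes of 0.61 ± 0.62, adjusted p = 0.477 and -0.57 ± 0.36, adjusted p = 0.263, neither past the threshold. Their interactions were -6.41 ± 0.87, adjusted p = 2.63e-05 and -5.06 ± 0.52, adjusted p = 4.75e-07. Il19 was above background on 1 of 3 IFN-γ arrays and 3 of 7 untreated arrays. Il23a was above background on no IFN-γ array, 1 of 7 untreated and 2 of 7 LPS arrays, so its interaction, though past the threshold (adjusted p = 0.000755), has no measured size.

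**Figure D5:**
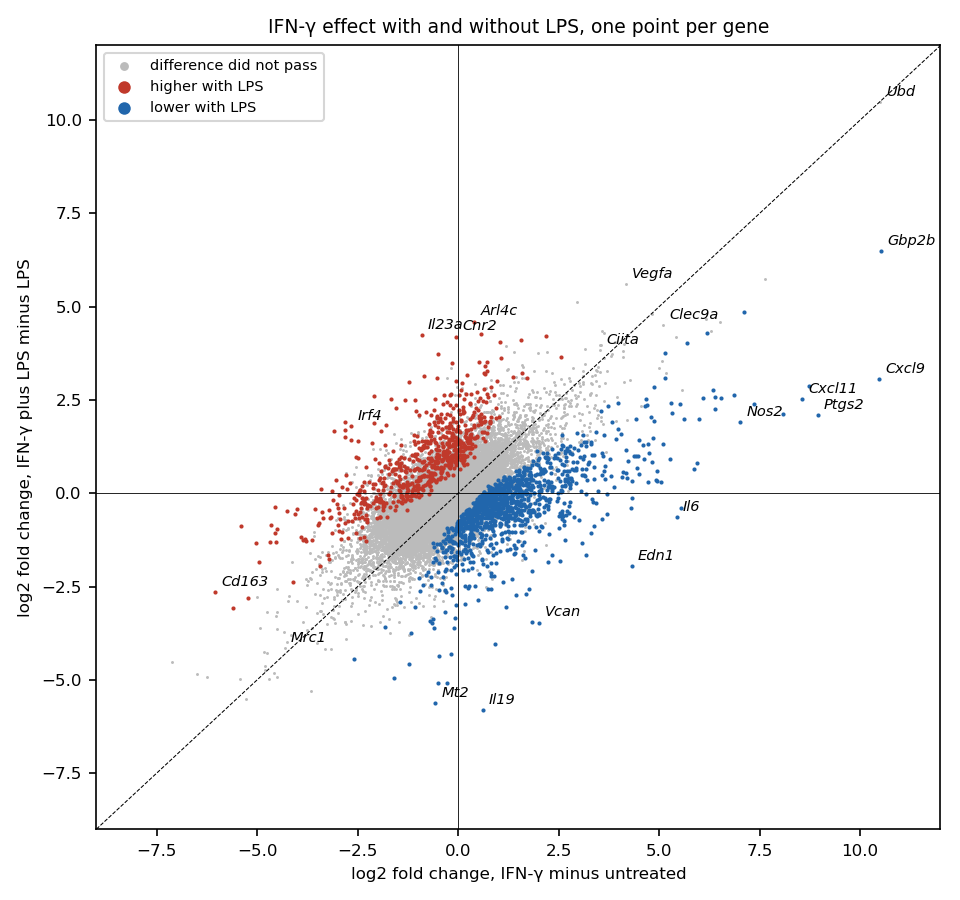
Log2 fold change of each tested gene with IFN-γ in LPS-treated cells (y axis) against the change without LPS (x axis), red where the effect was higher and blue where it was lower with LPS at adjusted p under 0.05. Ubd, Ciita and Mrc1 lie near the dashed line of equal effect, Cxcl9, Ptgs2 and Il6 far to its right, and Il23a, Arl4c and Cnr2 above it. Values of Ubd, Il6 and Il23a on the x axis, and of Ubd and Il23a on the y axis, rest in part on signals below background.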

How the data were processed

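Total RNA of 28 cultures was hybridised to single-colour Agilent arrays. Per the submitters' processing notes, images were read with Agilent Feature Extraction 9.5.1. The deposited intensity values are the processed signals, which per the file headers were detrended without local background subtraction, with surrogate values for the dimmest spots. The deposited series value table was not used here because its column order is in doubt.

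Each array's log2 intensity was reduced by the log2 of its 75th percentile over gene probes, computed from the deposited signals. Control spots and outlier spots (at most 173 on the 10 arrays) were left out, saturated spots (at most 3) were kept, and spots of a probe were averaged. Of 41174 probes, 23082 were named by accession, 6582 by symbol and 3073 by synonym through RefSeq, and 8437 kept the array's name. The brightest probe stood for a gene, which matters for 8487 genes with several probes. In 28 called genes another probe went the opposite way at unadjusted p under 0.05. Genes were tested if well above background on at least 3 of 28 arrays.

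limma 3.58.1 in R 4.3.3 fitted 1 model of 6 group means to all arrays. Tests were two-sided, with Benjamini-Hochberg adjustment over all genes tested and calls at adjusted p under 0.05. The script was tested on simulated data. Alternatives changed the background correction (normexp, offset 50), scaling, filter, probe summary, variance model, arrays used and blocks (experiment letter, slide, scan day, matched set).

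The comparison, gene lists and motifs were chosen with earlier results of these data known. The genes named are the 15 largest rises and falls among called genes, up to 6 called and 3 clearly uncalled members of each list, the 10 largest interactions in each direction, and 17 genes of the IFN-γ and LPS response. Some genes this rule takes are not reported here. Promoters come from RefSeq, build GRCm38.p6. The series text speaks of independent experiments for each condition. The number of arrays limits the precision.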

Additional observations from a re-analysis of the deposited data

Results flagged for a closer look

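In 19 of 188 named genes 1 LPS array stood far from the other 6, by more than Dixon's 95% critical value of 0.568 of the group's range. Chance gives such a gap in about 1 group of 20. The array was C in 13 genes, E in 4 and B in 2. LPS array C was the lowest of the group, far from the next, for Abca9 (-3.97), Adamts4 (-0.61), Cd69 (4.84), Cxcl11 (3.04), Gpr65 (1.30), Irf4 (-5.96), Klf4 (1.94), Socs1 (5.14), Stat5a (3.51) and Tfec (2.01). LPS array C was the highest of the group, far from the next, for Fdft1 (2.72), Hilpda (1.23) and Slc2a1 (5.55). LPS array E was the lowest of the group, far from the next, for Ccl2 (7.52) and Trib3 (-3.36). LPS array E was the highest of the group, far from the next, for Gvin1 (6.54) and Tapbpl (3.90). LPS array B was the lowest of the group, far from the next, for Lgals9 (2.43). LPS array B was the highest of the group, far from the next, for Il1a (1.37). Array C is 1 of the 2 LPS arrays of the first scan day, and its part in these values was not tested.

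The effect of IFN-γ differed with and without LPS, at adjusted p under 0.05 in limma's interaction test, for 78 of the named genes. The values are log2 differences, the IFN-γ effect with LPS minus the effect without it. Higher and lower refer to the sign of this difference and not to the size of the effect. A gene that fell more with LPS, such as Mt2, is thus listed as lower, and a gene that fell less with LPS as higher. For Bmper, Cd163, Il23a, Il6, Shisal2b and Steap4 a group of arrays was wholly below background, so the fitted value is neither a bound nor a measured size. A higher effect with LPS was found for Il23a (5.15), Irf4 (4.47), Cnr2 (4.24), Arl4c (4.20), Cxcr4 (4.19), Cd163 (3.40), Slc40a1 (3.18), Il1rl1 (3.12), Pdgfb (2.72), Dusp4 (2.12), Plau (2.03), Cebpa (1.96), Traf3 (1.75) and Stat6 (0.81). Among interferon GTPases, antigen presentation and antiviral genes, a lower effect was found for Gbp2b (-4.03), Gbp4 (-3.80), Iigp1 (-3.69), Gbp3 (-3.40), Gbp6 (-3.29), Gbp7 (-3.02), Rsad2 (-2.51), Jak2 (-2.48), Gbp8 (-2.33), Tgtp1 (-2.21), Eif2ak2 (-1.94), Irf1 (-1.91), Tapbpl (-1.88), Ddx58 (-1.74), Psmb10 (-1.73), Stat3 (-1.51), Zbp1 (-1.24), Gvin1 (-1.14), Psmb8 (-0.95) and Tapbp (-0.87). Among cytokines, chemokines and feedback genes, a lower effect was found for Cxcl9 (-7.42), Il19 (-6.41), Edn1 (-6.28), Il6 (-6.07), Cxcl11 (-6.03), Il1b (-5.21), Socs1 (-5.13), Socs3 (-4.57), Il12b (-3.93), Ccl7 (-3.73), Cxcl10 (-3.28), Cxcl3 (-3.12), Ccl17 (-3.01), Inhba (-2.05), Nfkbie (-1.77) and Dusp10 (-1.36). The other genes with a lower effect were Ptgs2 (-6.85), Vcan (-5.48), Nos2 (-5.12), Mt2 (-5.06), Shisal2b (-4.80), Cd69 (-4.69), Steap4 (-4.59), Bmper (-3.37), Cd274 (-3.37), Cp (-3.34), Pfkfb3 (-3.19), Ptges (-3.17), Tlr3 (-3.00), Lcn2 (-2.80), Hcar2 (-2.77), Kmo (-2.55), Sod2 (-2.47), Cd86 (-2.46), Il12rb1 (-2.25), Flt1 (-2.16), Slamf8 (-1.90), Cycs (-1.88), Fcgr2b (-1.48), Lgals9 (-1.45), C1s1 (-1.38), Tfec (-1.30), Axl (-1.01) and Pycard (-1.01).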

How the results depend on the processing

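Of the 141 named genes that were called, 90 kept their call and direction under all 25 alternatives in which they could be tested, 50 lost the call under at least 1, and Cd163 turned to 0.21 (adjusted p = 0.81) with normexp background correction. Of 47 named genes that were not called, 44 stayed so under all alternatives. No called fall became a called rise under any alternative, and 1 called rise became a called fall with the mean of all probes.

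Counts of calls moved by more than 1.5 times as follows. For IFN-γ plus LPS against LPS (5098 called, 2415 higher and 2683 lower), experiments E, F and G alone gave 2437 (1217 and 1220), normexp gave 2387 (1078 and 1309), and the matched sets without a block gave 2837 (1556 and 1281). Median scaling gave 961 lower. Leaving out each array gave 3223 to 5178 calls, 1589 to 2475 higher and 1553 to 2778 lower, with the lowest values without IFN-γ plus LPS arrays E and F. For IFN-γ without LPS (5790), normexp gave 2920 and the matched sets 3386, and leaving out each array gave 3983 to 5767. For the interaction (1863), experiments E, F and G alone gave 630, normexp 928, median scaling 1034, the matched sets 905, slide as a block 4155 and scan day as a block 3656, and leaving out each array gave 1282 to 2067. Called members of the gene lists (285) fell to 160 with experiments E, F and G alone and to 171 with normexp, and ranged from 197 to 281 when each array was left out. Fewer arrays entered the fit in the matched sets and in experiments E, F and G alone. Of the 30 gene lists, 11 had their calls lowered by more than 1.5 times without IFN-γ plus LPS array E and 12 without array F. The cause of the other shifts was not tested. The matched sets and the omission of the first scan day were chosen after seeing the data.

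The letters were not treated as pairs because no protocol states a paired analysis, and whether equal letters mark 1 experiment is not settled by the labels. Arrays with the same experiment letter did not deviate together in every pair, with correlations of 0.272 for E, -0.010 for F and 0.077 for G. Within the 3 matched sets the correlations were 0.141 for E with A, 0.139 for F with G and 0.575 for G with B, so only G with B stood out. IFN-γ plus LPS array E correlated more with LPS arrays D (0.314), E (0.272) and C (0.208), which are outside its set. Array F had 0.126 with LPS array A, also outside its set. Counts with the set as a block are given in the report. With the letter as a replicate block 4470 genes were called (2169 higher and 2301 lower), 5010 for IFN-γ without LPS, 1617 for the interaction and 252 among list members. Cxcl2, Ifnb1, Iigp1, Il1a and Socs1 lost their calls (adjusted p = 0.0538 to 0.141). Only E correlated above 0.1 with its own letter, and none of the 3 IFN-γ plus LPS arrays correlated best with its own.

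Dim signals limit the falls. Ccl24, Abca9, Shisal2b, Steap4, Bmper, Ppbp and Cd163 were above background on no IFN-γ plus LPS array, so their changes are given as bounds, which hold for the floor used only. With normexp 30 of 141 named called genes had their log2 change lowered by more than 1.5 times and 0 had it raised as much. That group holds 3 arrays.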
